A study of Mus musculus with 60 samples.

Results

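The genes described here are Bmp2, Bmp4, Bmp6, Bmp1, Grem1, Nog, Chrdl1, Fst and Inhba, which encode bone morphogenetic protein (BMP) and activin ligands and the secreted proteins that act on them. They were found in both deposited count tables by gene identifier, each matched to its mouse symbol, and are 9 of the 56980 identifiers of each table. Bmp2, Bmp4 and Bmp6 encode BMP ligands. Grem1, Nog and Chrdl1 encode the BMP antagonists gremlin 1, noggin and chordin-like 1, Fst encodes follistatin, which binds activins, and Inhba encodes the inhibin beta A chain, whose homodimer is activin A. In spite of its name Bmp1 encodes no ligand but a tolloid family metalloproteinase, so the set holds 3 BMP ligand genes, 1 activin ligand gene, 4 antagonist genes and 1 proteinase gene.

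BMPs and activins are secreted dimers of the TGFb superfamily that assemble type I and type II serine/threonine kinase receptors and so activate receptor-regulated Smads. Gremlin 1, noggin and chordin-like 1 hold BMPs outside the cell away from their receptors, follistatin does so chiefly for activins, and tolloid proteinases cleave chordin and procollagens. In fibroblasts the balance of these proteins is tied to matrix production and myofibroblast identity, and BMP signalling is known to favour the mesenchymal-to-epithelial transition early in reprogramming.

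RNA from mouse fibroblasts was sequenced in 60 libraries that formed 20 groups of 3. The reprogramming table held 36 of these libraries, from tail tip cells at day 0, day 2 or day 4 of doxycycline (2 µg/ml), each without or with VC, the pair of ascorbic acid (50 µg/ml) and the GSK3 inhibitor CHIR-99201 (3 µM; spelled as in the labels). Doxycycline switched on the Col1a1-tetO-OKSM cassette through ROSA26-M2-rtTA, so every cell type of the culture could express the 4 factors. D/KO cells had the genotype 4FJ_ERCC1_(d/-), 1 truncated and 1 null allele of the DNA repair gene Ercc1, and were male and 8 weeks old, whereas WT cells were 4FJ_(+/-)_OCT4-GFP, female and 22 weeks old. Genotype, sex, age, reporter and line therefore cannot be told apart in any contrast of D/KO with WT cells. The study's methods do not say whether cultures induced with VC had it before doxycycline. Day 0 plus VC is therefore a control group and need not be their starting level. The inhibitor table held the other 24 libraries. Tail tip cells of genotype ERCC1_(d/-) (female, 4 weeks old) were left untreated or, per the study's methods, given for 3 days Repsox (0.1 µM) or A83-01 (1 µM), inhibitors of the TGFb type I receptor ALK5, DMH-1 (1 µM), an inhibitor of the BMP type I receptor ALK2, or Vactosertib (0.1 µM; vactoserib in the labels), described as acting on both. Untreated ERCC1_(+/+) cells from tail tip and from skin (both female, 14 weeks old) and tail tip cells of the 4FJ_(+/-)_OCT4-GFP line labelled TGFB (female, 22 weeks old) completed that table, with no untreated library of that last line beside them. Each genotype of a table appears to come from 1 cell line, and no label says that the 3 libraries of a group came from separate cultures or animals. The p-values therefore measure only the spread between these libraries, which may be technical.

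The reprogramming libraries held between 16538374 and 18484951 counts each, and the inhibitor libraries between 17102639 and 30599138. Levels are given as counts scaled to library size (CPM) after TMM scaling, and levels of different genes are compared only per length, as RPKM, which divides CPM by the gene length in kilobases. Pou5f1, the Oct4 gene of the cassette, was at 0.471 to 2.88 CPM in the 12 libraries of day 0 and at 12.5 to 149.7 CPM in the 24 libraries of day 2 and day 4, with the lowest in WT day 2 replicate 2. Ercc1 was at 8.04 to 18.6 CPM in the D/KO and 16.9 to 29.1 CPM in the WT libraries of the reprogramming table. In the inhibitor table it was not lower in the untreated D/KO cells, at 20.3 to 20.9 CPM, than in the WT tail tip cells, at 13.3 to 21.7 CPM. The 9 fibroblast markers were present in all groups, with a summed level of 33098 to 253183 CPM. Markers of other cell types were also present and moved with the groups. The 6 endothelial markers summed to 738 to 835 CPM in D/KO and 14.7 to 17.5 CPM in WT cells at day 0, and the 6 leukocyte markers to 12.8 to 13.5 and 76.7 to 148 CPM. The sums of the 8 epithelial, 7 chondrocyte and bone, and 7 muscle and nerve sheath markers ran from 1.68 to 674.9, from 5.85 to 93.0 and from 3.92 to 94.2 CPM over all libraries. In bulk RNA, fewer cells of a type and less RNA per cell cannot be told apart.

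The genes lie on 5 chromosomes (build GRCm39, GENCODE M39). The ligand genes are Bmp2 at chr2:133394079-133404816 (plus strand), Bmp4 at chr14:46620250-46636745 (minus) and Bmp6 at chr13:38529065-38684280 (plus). The antagonist genes are Grem1 at chr2:113576509-113589000 (minus), Nog at chr11:89191464-89193158 (minus), Chrdl1 at chrX:142068670-142177258 (minus) and Fst at chr13:114588731-114595521 (minus). Inhba lies at chr13:16186373-16206206 (plus) and Bmp1 at chr14:70711689-70758178 (minus). Whether counting used strand is not given in the sources used here, and Bmp6 shares 224 exon bases with Txndc5 on the opposite strand, an abundant gene with up to 22144 counts in a library. Fst and Bmp4 share 115 and 89 exon bases with the opposite-strand RNAs Gm47040 and Gm15217, which had at most 17 counts in any library.

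Upstream sequence was read from GRCm39 for 4 of the genes: Bmp6 and Inhba, which moved in opposite directions in every reprogramming contrast against day 0, and Chrdl1 and Grem1, antagonists that rose with each compound directed at ALK5. Each run holds the bases just before the start of the Ensembl canonical transcript, 5′ to 3′ on the strand of the gene, with motif matches in capitals. The Bmp6 window (chr13:38528833-38529064, plus strand) has 232 bases because it stops at another exon of the gene, and it held none of the motifs searched. Of the full 250 bases before the start, 56.4% were G and C. The Inhba window (chr13:16188733-16188982, plus strand, 43.2% G and C) lies within the span of a longer transcript of the gene but in none of its exons, and its capitals mark an E-box starting 62 bases before the start. In the Chrdl1 window (chrX:142177259-142177508, minus strand, 56.8% G and C) the capitals mark an E-box that begins 212 bases upstream, and in the Grem1 window (chr2:113589001-113589250, minus strand, 70.8% G and C) a GC-rich Smad element that begins 71 bases upstream.
Bmp6: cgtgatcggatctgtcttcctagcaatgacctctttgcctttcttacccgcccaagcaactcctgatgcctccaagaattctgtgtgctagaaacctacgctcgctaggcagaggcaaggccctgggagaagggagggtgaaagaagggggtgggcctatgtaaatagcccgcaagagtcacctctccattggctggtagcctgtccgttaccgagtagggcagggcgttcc
Inhba: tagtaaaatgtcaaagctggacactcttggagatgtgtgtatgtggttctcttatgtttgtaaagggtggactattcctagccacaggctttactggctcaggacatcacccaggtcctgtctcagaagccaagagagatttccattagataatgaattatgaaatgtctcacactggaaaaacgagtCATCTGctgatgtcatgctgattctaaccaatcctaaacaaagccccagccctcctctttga
Chrdl1: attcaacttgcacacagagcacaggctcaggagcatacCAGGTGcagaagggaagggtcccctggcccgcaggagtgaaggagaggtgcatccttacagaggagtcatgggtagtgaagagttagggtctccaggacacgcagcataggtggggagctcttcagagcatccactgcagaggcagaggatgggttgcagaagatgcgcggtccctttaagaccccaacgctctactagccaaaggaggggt
Grem1: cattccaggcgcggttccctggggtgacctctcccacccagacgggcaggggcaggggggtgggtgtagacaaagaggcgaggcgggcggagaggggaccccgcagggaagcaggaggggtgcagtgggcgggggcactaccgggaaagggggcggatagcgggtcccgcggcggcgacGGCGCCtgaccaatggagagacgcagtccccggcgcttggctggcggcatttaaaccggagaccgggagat
The motifs were searched on both strands in the same window of all the genes described. That of Bmp1 falls in its own exons and held none of the motifs. The E-box CANNTG, which 64.8% of 21770 promoters of this length hold, was found in Bmp2, Bmp4, Chrdl1 and Inhba. The GC-rich Smad element GGCGCC, held by 9.3% of promoters, was found in Grem1 alone among the windows searched. The AP-1 element TGANTCA, the TCF/LEF element CTTTGAT and the TATA element TATAAA, held by 6.2%, 2.9% and 11.9% of promoters, were found in none of these windows. A match is a run of letters, not a bound site, and the absence of a match says only that these letters are not in the window.

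At day 0 of reprogramming the antagonist Grem1, the activin gene Inhba and Bmp1 were the most abundant of the 9 transcripts per length, and the BMP ligand genes were lower. D/KO cells at day 0 had 48.9 ± 9.25 RPKM of Inhba (SD, n = 3, as for all levels), 45.7 ± 8.89 of Grem1 and 44.5 ± 8.44 of Bmp1, neighbours that did not differ beyond their spread. Nog (9.96 ± 3.23 RPKM) and Bmp4 (7.66 ± 1.198) followed and likewise overlapped, as did Fst (4.48 ± 0.745) with Bmp6 (3.52 ± 0.523), ahead of Chrdl1 (2.45 ± 0.617) and Bmp2 (0.02804 ± 0.0341). In WT cells at day 0 Grem1 stood apart at 89.4 ± 3.42 RPKM, above Bmp1 (47.8 ± 1.104) and Inhba (46.4 ± 4.02), which did not differ beyond their spread. Nog (20.3 ± 3.33), Fst (11.4 ± 0.3802) and Chrdl1 (10.2 ± 1.56) came next, and Bmp6 (3.92 ± 0.0899), Bmp4 (2.23 ± 0.557) and Bmp2 (0.143 ± 0.0784) were the lowest. The untreated cells of the inhibitor table had Bmp1 first, at 51.7 ± 3.83 RPKM in D/KO cells, 77.3 ± 2.805 in WT tail tip cells and 135 ± 23.97 in WT skin cells. Inhba and Grem1 came next in D/KO and skin cells, whereas in WT tail tip cells Fst (36.2 ± 1.299) and Grem1 (25.2 ± 3.46) stood ahead of Inhba (9.84 ± 2.24). By day 4 plus VC the order had moved, with Bmp6 at 26.7 ± 0.951 RPKM second only to Grem1 (61.05 ± 11.4) in D/KO cells and Chrdl1 last at 0.622 ± 0.1598.

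**Figure D1:**
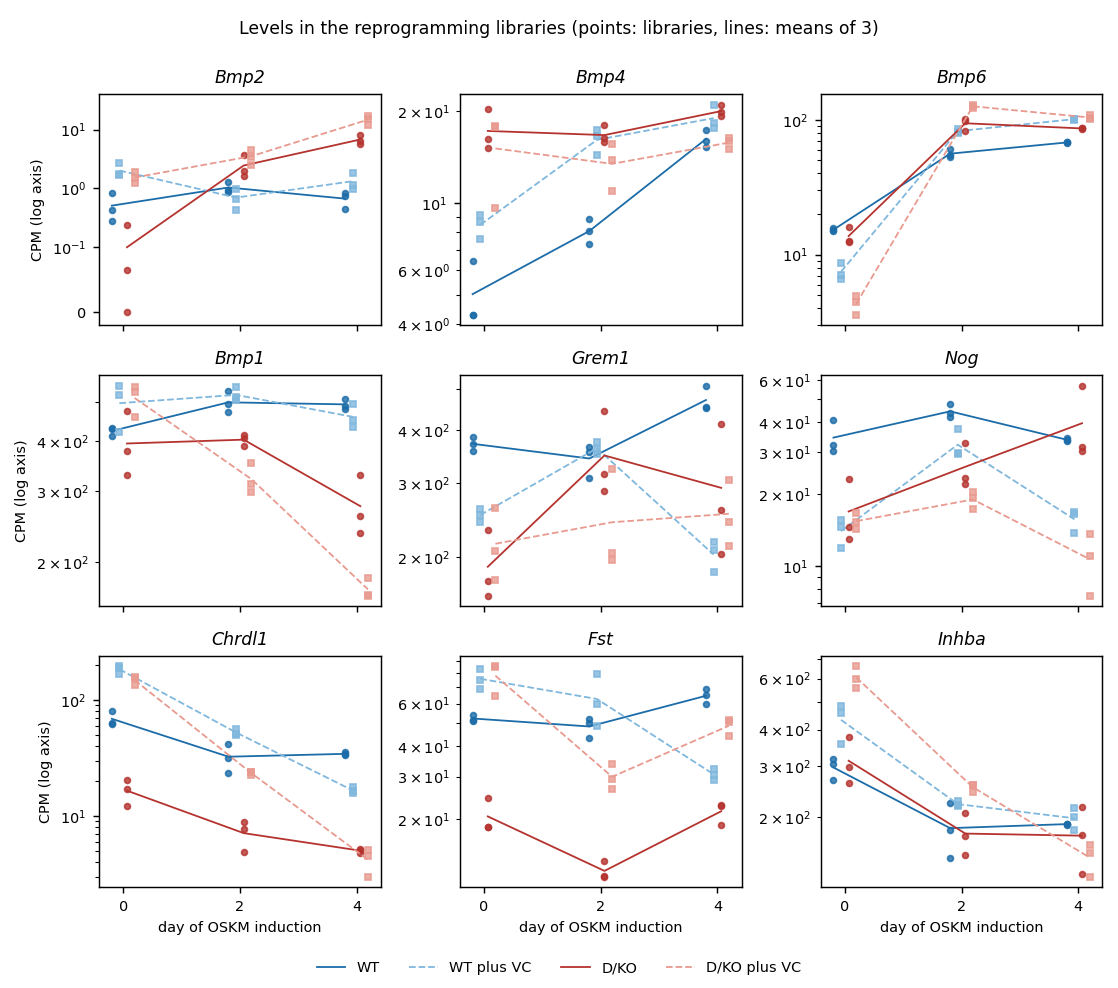
Level of each gene in the 36 reprogramming libraries, in CPM after TMM scaling on a log axis, by day of doxycycline for D/KO and WT cells without and with VC. Points are libraries and lines join group means, and the Bmp2 panel has a linear stretch below 0.1 CPM so that libraries at 0 can be drawn. Bmp6 climbs from day 0 to day 2 in all 4 arms, Inhba and Chrdl1 fall, and Bmp2 climbs in the D/KO arms.

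Induction of the 4 factors was followed by a rise of Bmp6 in both genotypes, with and without VC, and by a fall of Chrdl1 and Inhba. In D/KO cells without VC, 4 of the 9 genes rose and 3 fell by day 2, where 27.4% of all genes tested were called, and 4 rose and 3 fell by day 4, where 37% were. In WT cells 2 rose and 2 fell by day 2 (10.6% of all genes) and again 2 rose and 2 fell by day 4 (24.5%). A fit of only the groups compared called 7 of the 9 in WT cells at day 4, with Bmp1, Grem1 and Fst added as rises (adjusted p = 0.000778, 1.21e-05 and 0.000544). With VC, 2 rose and 4 fell in D/KO cells by day 2 (47.4% of all genes) and 2 rose and 5 fell by day 4 (54.1%). WT cells with VC had 4 rises and 3 falls by day 2 (27.5%) and 2 rises and 3 falls by day 4 (44.7%). A gene was called at an adjusted p below 0.05 in edgeR's quasi-likelihood test, with p adjusted over all genes tested, and the days of an arm share its day 0 libraries. The median change of the 9 genes lay between -0.53 and 0.31 on the log2 scale in these 8 contrasts, and that of all genes between -0.01 and 0.03. Epithelial marker sums were higher on the later days in D/KO cells, with 9.74 to 12.6 CPM at day 0 and 56.6 to 80.2 CPM at day 4. With VC the sums were 1.68 to 2.86 CPM at day 0 and 553 to 675 CPM at day 4, where Krt15 alone was at 0. In WT cells they were 7.899 to 11.4 CPM at day 0 and 11.4 to 15.04 at day 4, and with VC 1.71 to 2.15 and 11.3 to 13.6. Fibroblast sums were lower at day 4, at 37370.5 to 38976 CPM in D/KO cells and 33098 to 34270.5 with VC, against the 80061 to 119027 and 183611 to 253183 CPM of day 0. WT cells had 52059.9 to 53832 CPM of them at day 0 and 45948 to 48207 at day 4, and with VC 155628 to 171384 and 60912 to 72032. Endothelial sums at day 4 were 384 to 429 CPM in D/KO cells, below day 0, and with VC 567 to 796 against 263 to 304 CPM, while in WT cells they were 95.4 to 95.7 and, with VC, 98.1 to 116 CPM, both above day 0. Leukocyte sums in WT cells were 54.8 to 68.6 CPM at day 4 and, with VC, 42.2 to 45.2 against 69.8 to 118 CPM at day 0 plus VC, all below day 0 of the same arm. In D/KO cells they were 12.8 to 13.5 CPM at day 0 and 6.48 to 7.38 at day 4, and with VC 10.2 to 13.2 and 4.57 to 5.58. Chondrocyte and bone sums in D/KO cells were 40.8 to 45.02 CPM at day 0 and 8.88 to 13.1 CPM at day 4. With VC they were 11.4 to 18.03 and 8.16 to 8.52 CPM, and in WT cells with VC 19.2 to 26.5 and 15.5 to 18.9. In WT cells without VC these sums overlapped between the days. The part of all these markers in the changes below was not tested.

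Bmp6, a BMP ligand of the same subgroup as Bmp5 and Bmp7, rose in all 8 contrasts against day 0 of the same arm. D/KO libraries held 12.5, 12.6 and 16.1 CPM at day 0, 97.5, 102 and 83.2 CPM at day 2 and 86.9, 86.2 and 85.6 CPM at day 4. WT libraries held 15.4, 14.9 and 15.6 CPM at day 0, 52.5, 54.6 and 61.1 at day 2 and 67.4, 68.3 and 67.9 at day 4. No induced library overlapped day 0 in either genotype, the day 2 and day 4 libraries of D/KO cells were much alike, and the WT libraries of day 4 were all above those of day 2. The rise to day 2 was 6.85-fold in D/KO cells (log2 change 2.78 ± 0.104 SE; adjusted p = 1.98e-21) and 3.66-fold in WT cells (adjusted p = 6.82e-16). With VC, D/KO libraries held 4.92, 4.44 and 3.58 CPM at day 0, 129, 122 and 126 at day 2 and 101, 108 and 102 at day 4. WT libraries with VC went from 6.63, 8.66 and 7.103 CPM at day 0 to 79.95, 81.5 and 85.5 at day 2 and 101, 100.1 and 102 at day 4. Every library with VC was below every library without VC at day 0 and above them at day 2 and day 4, in both genotypes. To day 4 plus VC the rise was 24.1-fold in D/KO cells (log2 change 4.59 ± 0.12; adjusted p = 3.01e-26) and 13.5-fold in WT cells (adjusted p = 1.93e-24). Txndc5, which shares exon bases with Bmp6, had a lower mean at day 4 than at day 0 in both genotypes (664 and 519 CPM in D/KO cells, 590.4 and 500.4 CPM in WT cells). With VC its means went from 795 to 387 CPM in D/KO and from 825 to 419 CPM in WT cells.

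Bmp2, a ligand that drives bone and heart development, was close to 0 at day 0 and became a measurable transcript in D/KO cells. It had 1, 4 and 0 counts in the 3 D/KO libraries of day 0, 2.01, 1.62 and 3.71 CPM at day 2 and 8.14, 6.48 and 5.77 CPM at day 4. With VC the D/KO libraries held 1.23, 1.88 and 1.47 CPM at day 0, 2.55, 3.43 and 4.59 at day 2 and 15.2, 17.2 and 12.01 at day 4. All induced libraries exceeded their day 0 libraries, and those of day 4 exceeded those of day 2. The change to day 4 was 6.07 ± 0.51 on the log2 scale without VC (adjusted p = 3.56e-12), a fold that rests on the few reads of day 0, and 3.28 ± 0.34 with VC (adjusted p = 2.96e-10). WT libraries stayed low, with 0.276, 0.4297 and 0.817 CPM at day 0, 1.29, 0.874 and 0.935 at day 2 and 0.819, 0.742 and 0.442 at day 4. In WT cells with VC the values were 2.65, 1.66 and 1.73 CPM at day 0, 0.429, 0.9899 and 0.669 at day 2 and 0.988, 1.15 and 1.83 at day 4. Without VC the WT libraries of day 4 lay within or at the edge of the day 0 range (log2 change 0.39, adjusted p = 0.604), and with VC Bmp2 fell at day 2 (log2 change -1.52, adjusted p = 0.00401), which was a difference of 0.45 when set against day 0 without VC.

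Bmp4, a ligand that patterns mesoderm and skin appendages, rose in WT cells and was not called in D/KO cells. WT libraries held 6.46, 4.297 and 4.29 CPM at day 0, 8.08, 8.84 and 7.32 at day 2 and 16.01, 15.3 and 17.3 at day 4. With VC they held 9.098, 8.66 and 7.63 CPM at day 0, 14.4, 17.3 and 16.5 at day 2 and 17.6, 18.3 and 20.98 at day 4. Neither arm had an induced library within the range of its day 0, and the change to day 4 was 1.69 ± 0.18 without VC (adjusted p = 3.53e-09) and 1.16 ± 0.17 with VC (adjusted p = 1.1e-06). The smaller rise to day 2 without VC (adjusted p = 0.0112) gave 0.0697 without WT day 0 replicate 2, 0.0875 without replicate 3 of day 0 and 0.0666 without WT day 2 replicate 2. D/KO cells started higher and stayed there, at 16.2, 15.2 and 20.3 CPM on day 0, 17.9, 16.3 and 15.8 on day 2 and 19.3, 19.8 and 20.9 on day 4. With VC the D/KO libraries held 17.9, 17.7 and 9.61 CPM at day 0, 15.6, 13.8 and 10.9 at day 2 and 16.3, 15.04 and 15.9 at day 4, where the third library of day 0 was the lowest of that arm. The D/KO log2 changes to day 4 were 0.22 (95% interval -0.12 to 0.55) and, with VC, 0.06 (-0.28 to 0.41). Without that day 0 library the change to day 2 plus VC was called (log2 -0.41, adjusted p = 0.0353).

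Bmp1, whose product cuts procollagens and chordin, fell in D/KO cells and was not called in WT cells by the fit of all groups. D/KO libraries held 476, 378 and 329 CPM at day 0, 407, 414 and 389 at day 2 and 261, 236 and 329.5 at day 4. With VC they held 530.2, 459 and 546 CPM at day 0, 353, 299 and 313 at day 2 and 165, 166 and 183 at day 4, a stepwise fall in which no library of a later day reached the range of an earlier one. Without VC the day 4 range touched that of day 0, and the log2 change was -0.52 ± 0.12 (adjusted p = 0.000429), against -1.58 ± 0.12 with VC (adjusted p = 6.85e-14). WT libraries held 429, 429.8 and 412 CPM at day 0 and 482, 489 and 509 at day 4, and with VC 549, 519 and 422 CPM at day 0 and 452, 494 and 432 at day 4. Their log2 changes to day 4 were 0.22 (adjusted p = 0.168) and -0.11 (adjusted p = 0.448).

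Among the BMP antagonists Chrdl1 fell in all 8 contrasts against day 0 of the same arm. D/KO libraries held 17.1, 20.4 and 12.1 CPM at day 0, 7.71, 8.82 and 4.85 at day 2 and 5.05, 4.81 and 5.23 at day 4. With VC the day 0 libraries were much higher, at 134, 157 and 156 CPM. Those of day 2 held 24.03, 23.98 and 22.6 CPM and those of day 4 held 4.49, 3.01 and 5.11 CPM. Set against day 0 without VC, the D/KO libraries of day 2 plus VC were higher (log2 0.51, adjusted p = 0.0166). All D/KO libraries of day 4 lay between 3.01 and 5.23 CPM, with and without VC. The log2 change to day 4 was -1.72 ± 0.196 without VC (adjusted p = 4.29e-09) and -5.15 ± 0.203 with VC (adjusted p = 1.25e-21). WT libraries held 81.3, 62.6 and 63.4 CPM at day 0, 41.9, 23.7 and 31.9 at day 2 and 33.4, 35.9 and 34.1 at day 4, all below day 0. With VC they held 169, 191 and 195 CPM at day 0, 51.01, 50.5 and 56.3 at day 2 and 16.5, 15.7 and 17.8 at day 4 and separated by day. The WT log2 changes to day 4 were -1.004 ± 0.16 (adjusted p = 1.3e-05) and, with VC, -3.47 ± 0.18 (adjusted p = 7.39e-18).

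Grem1 and Nog, which bind BMP dimers directly, rose in D/KO cells without VC. Grem1 was at 162, 176 and 232 CPM in the D/KO libraries of day 0, 314, 287 and 443 at day 2 and 258, 203 and 414 at day 4. The day 2 libraries were all above day 0, while those of day 4 overlapped it (log2 changes 0.88 and 0.62; adjusted p = 0.000502 and 0.00907). The rise of Grem1 to day 4 rested on single libraries, at log2 0.29 (adjusted p = 0.233) without D/KO day 4 replicate 3 and adjusted p = 0.0593 without D/KO day 0 replicate 1. Nog was at 23.1, 14.5 and 12.97 CPM at day 0, 23.3, 21.99 and 32.6 at day 2 and 30.3, 31.5 and 56.7 at day 4, so that 2 of the 3 libraries of day 2 and all of day 4 lay above the day 0 range. Its log2 change was 0.62 ± 0.21 to day 2 (adjusted p = 0.0208) and 1.23 ± 0.21 to day 4 (adjusted p = 7.19e-06). The call of Nog at day 2 gave adjusted p = 0.1 without D/KO day 0 replicate 2, 0.136 without day 0 replicate 3 and 0.17 without day 2 replicate 3.

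With VC no rise of either antagonist was called in D/KO cells. Grem1 libraries held 207, 177 and 261 CPM at day 0 and 242, 213 and 305 CPM at day 4 of the VC arm, which overlapped (log2 change 0.24, 95% interval -0.15 to 0.62, adjusted p = 0.307). Nog went from 14.3, 15.2 and 16.6 CPM to 20.4, 17.3 and 19.2 at day 2, all above day 0 but not past the threshold (log2 change 0.302, adjusted p = 0.247), and to 7.51, 10.98 and 13.5 at day 4, where all libraries were below day 0 (log2 change -0.53, adjusted p = 0.039). That call of Nog gave adjusted p = 0.066 and 0.112 without D/KO day 0 plus VC replicates 2 and 3, and 0.255 and 0.0692 without day 4 plus VC replicates 1 and 2. In WT cells Nog held 32.1, 40.8 and 30.2 CPM at day 0 and 33.2, 33.5 and 34.3 at day 4, which overlapped, and with VC 15.5, 14.5 and 11.9 CPM at day 0, 37.3, 29.3 and 29.7 at day 2 and 13.7, 16.8 and 16.5 at day 4. The WT libraries of day 2 plus VC were all above day 0 (log2 change 1.199 ± 0.21, adjusted p = 2.46e-05) and those of day 4 overlapped it. Against day 0 without VC as the baseline the Nog change to day 2 plus VC was -0.099 and that of Grem1 -0.035. WT Grem1 went from 386, 357 and 370.0 CPM at day 0 to 509.6, 451 and 453 at day 4 (adjusted p = 0.19), and with VC from 251, 261 and 243 CPM at day 0 through 351, 375 and 361 at day 2 to 184, 217 and 208 at day 4. The high Grem1 libraries of day 2 plus VC gave a call (log2 change 0.53, adjusted p = 0.0355) that leaving out any 1 of the 6 libraries moved to 0.0569 to 0.0973.

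Inhba fell in all 8 contrasts, and Fst, whose product neutralises activin, moved by arm. Inhba was at 262, 298 and 377 CPM in D/KO libraries at day 0, 172, 147 and 206 at day 2 and 173, 127 and 217 at day 4. With VC it fell from 599.7, 557 and 661 CPM at day 0 to 244, 257 and 258 at day 2 and 159.6, 125 and 151 at day 4. Without VC all induced libraries were below day 0, and with VC the 3 days did not overlap each other. The log2 change to day 4 was -0.86 ± 0.15 without VC (adjusted p = 2.36e-05) and -2.06 ± 0.16 with VC (adjusted p = 1.65e-13). WT libraries held 316, 267 and 305 CPM at day 0 and 187, 189.6 and 189.8 at day 4, and with VC 356, 484 and 457 CPM at day 0 and 199, 180.1 and 214 at day 4, with no overlap in either arm (log2 changes -0.65 and -1.13; adjusted p = 0.00172 and 2.29e-07).

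Fst was at 24.5, 18.5 and 18.6 CPM in D/KO libraries at day 0, 11.6, 11.7 and 13.4 at day 2 and 19, 22.8 and 22.98 at day 4. It dipped at day 2 below every day 0 library (log2 change -0.74 ± 0.15, adjusted p = 0.000162) and was back in the day 0 range at day 4 (0.07, adjusted p = 0.734). With VC the D/KO libraries held 85.3, 64.8 and 84.6 CPM at day 0, 26.6, 33.8 and 29.4 at day 2 and 51.3, 43.96 and 50.5 at day 4, again lowest at day 2 with no overlap between days. Set against day 0 without VC those of day 2 and day 4 plus VC were higher (log2 0.54 and 1.24). WT libraries without VC held 54.1, 50.8 and 51.4 CPM at day 0 and 64.8, 69.2 and 59.8 at day 4 (log2 change 0.31, adjusted p = 0.0878). With VC they fell from 74.9, 83.7 and 69.2 CPM through 79.7, 59.8 and 48.5 at day 2, where replicate 1 lay within the day 0 range, to 29.2, 30.4 and 32.4 at day 4 (log2 change -1.31 ± 0.14, adjusted p = 8.16e-10). Without that day 2 library the change to day 2 plus VC was called (log2 -0.48, adjusted p = 0.00742).

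From day 2 to day 4 the genes moved unevenly between the arms. Of the 9 in D/KO cells, 3 rose and 1 fell without VC (9.57% of all genes called) and 2 rose and 5 fell with VC (15.6%). In WT cells 3 rose and none fell without VC (21.5%) and 1 rose and 4 fell with VC (20.1%). Bmp2 went on rising in D/KO cells in both arms (log2 changes 1.47 and 2.07; adjusted p = 0.00156 and 4.01e-06). Fst rose from its low of day 2 in both arms (0.82 and 0.699), and Bmp1 fell in both (-0.55 and, with VC, -0.91). With VC, Chrdl1 dropped again in D/KO cells (log2 change -2.48, adjusted p = 7.39e-12) and in WT cells (-1.66, adjusted p = 9.13e-09), beside Inhba in D/KO cells (-0.804) and Grem1 and Fst in WT cells (-0.84 and -1.03). Nog parted by arm in D/KO cells, with 0.604 without VC (adjusted p = 0.0492) and -0.83 with VC (adjusted p = 0.00503), and in WT cells with VC it fell by 1.04. In WT cells without VC the rise of Bmp4 was 1.003 (adjusted p = 0.000136) and that of Fst 0.42 (adjusted p = 0.0234).

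Several of these later calls were lost without 1 library. Nog in D/KO cells without VC gave adjusted p = 0.192 and 0.222 without day 2 replicates 1 and 2 and 0.493 without day 4 replicate 3, and with VC Nog gave 0.0627 without day 4 replicate 1. The small Bmp6 changes to day 4 (log2 -0.28 in D/KO cells with VC, 0.28 in WT cells and 0.296 in WT cells with VC) were lost without any of the 6 libraries in the first and without any of 5 libraries in each of the others. Fst in WT cells gave 0.143 without day 2 replicate 2, and 0.0578 and 0.0925 without day 4 replicates 1 and 2. In D/KO cells without VC, Grem1 and Chrdl1 were called only with a library left out. This was day 4 replicate 3 for Grem1 (adjusted p = 0.0329) and day 2 replicate 3 for Chrdl1 (adjusted p = 0.0284).

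VC alone, without induction, raised Chrdl1 and Fst and lowered Bmp6 in both genotypes. Of the 9 genes 5 rose and 1 fell in D/KO cells at day 0 (26.1% of all genes called), and 5 rose and 3 fell in WT cells (29.4%), with medians of 0.38 and 0.54. The values of these libraries stand above. Chrdl1 was 9.01-fold higher with VC in D/KO cells (adjusted p = 2.59e-16) and 2.68-fold higher in WT cells (adjusted p = 1.29e-08). For Fst the log2 changes were 1.93 and 0.54 (adjusted p = 3.41e-13 and 0.00199), for Inhba 0.96 and 0.55 (8.36e-06 and 0.00629), and for Bmp6 -1.67 and -1.03 (3.67e-13 and 4.36e-09). Bmp2 also rose in both, by 3.91 from the few D/KO reads of day 0 and by 1.97 in WT cells. In WT cells Nog fell (-1.298, adjusted p = 7.88e-06), Bmp4 rose (0.76, adjusted p = 0.00199) and Grem1 fell (-0.56, adjusted p = 0.0231), genes that were not called in D/KO cells, although the difference between the genotypes was not tested. Grem1 lost its call without WT day 0 replicate 1 (0.0642) or without day 0 plus VC replicate 1 (0.0569) or 3 (0.0744). In D/KO cells Bmp1 rose by 0.38 (adjusted p = 0.0135), which gave 0.0556 and 0.132 without day 0 replicates 2 and 3, and 0.053 and 0.0619 without day 0 plus VC replicates 1 and 3. The summed fibroblast markers moved with VC too, with 80061 to 119027 CPM without and 183611 to 253183 CPM with VC in D/KO cells, and 52059.9 to 53832 CPM without and 155628 to 171384 CPM with VC in WT cells. Endothelial sums were lower with VC, at 263 to 304 CPM in D/KO and 4.85 to 7.08 CPM in WT cells, and so were the epithelial sums given above, all without overlap. Chondrocyte and bone sums were lower too, at 11.4 to 18.03 CPM against 40.8 to 45.02 in D/KO cells. In WT cells they were 19.2 to 26.5 against 34.9 to 47.4 CPM. Muscle and nerve sheath sums were lower with VC in D/KO cells (6.6 to 11.8 against 24.2 to 37.01 CPM). In WT cells they were higher (9.22 to 12.2 against 4.14 to 5.72 CPM). Leukocyte sums overlapped. The part of these markers in the changes was not tested.

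After induction the differences between VC and no VC were partly those of day 0 and partly others. At day 2, 4 rose and 2 fell in D/KO cells (25.3% of all genes called), and 4 rose and none fell in WT cells (26.6%). At day 4, 3 rose and 2 fell in D/KO cells (34.5%), and 1 rose and 4 fell in WT cells (22.4%). Chrdl1 was still higher with VC at day 2 (log2 1.73 in D/KO and 0.69 in WT cells) but at day 4 it was -0.25 in D/KO cells (adjusted p = 0.394) and -1.05 in WT cells (adjusted p = 1.37e-05). Bmp4 was higher with VC in WT cells at day 2 (0.99, adjusted p = 4.16e-05), and at day 4 it was 0.23 there and -0.34 in D/KO cells (adjusted p = 0.376 and 0.108). Day 2 also had Fst (1.29 and 0.38) and Bmp6 (0.42 and 0.55) higher in both genotypes, and in D/KO cells Inhba higher (0.53) and Grem1 and Bmp1 lower (-0.53 and -0.32). Nog was lower with VC at day 4 in both genotypes (-1.89 and -1.104; adjusted p = 6.77e-09 and 8.9e-05), Grem1 in WT cells (-1.22, adjusted p = 7.66e-06) and Bmp1 in D/KO cells (-0.69). Fst at day 4 was higher with VC in D/KO cells (1.17, adjusted p = 2.45e-08) and lower in WT cells (-1.07, adjusted p = 1.78e-07). Bmp2 was higher in D/KO cells (1.12) and Bmp6 in both (0.27 and 0.57). Calls that leaving out 1 library removed were Bmp6 in D/KO cells at day 4 (0.0538 and 0.0539 without day 4 replicates 1 and 3, 0.0827 without day 4 plus VC replicate 2), Grem1 in D/KO cells at day 2 (0.303 without day 2 replicate 3, 0.176 and 0.195 without day 2 plus VC replicates 1 and 2) and Fst in WT cells at day 2 (0.0545 and 0.142 without day 2 replicates 1 and 2, 0.414 without day 2 plus VC replicate 1). Inhba in D/KO cells at day 2 gave 0.082 without day 2 replicate 2. Bmp1 lost its call at day 2 in D/KO cells without any of 5 of the 6 libraries (0.0517 to 0.143). Marker sums at day 2 differed with VC as well, and their part was not tested. In D/KO cells endothelial sums were 570 to 654 CPM without and 233 to 269 CPM with VC. Epithelial sums were 26.9 to 36.6 and 114 to 141 CPM, and muscle and nerve sheath sums 19.6 to 26.1 and 3.92 to 5.51. WT cells had endothelial sums of 61.7 to 66.6 and 94.7 to 102 CPM, and epithelial sums of 17.3 to 29.4 and 11.8 to 15.8.

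The change from day 0 to day 4 differed between the VC arms for Bmp6, Chrdl1 and Fst in both genotypes. By the test of the difference itself, the change with VC minus that without was higher for 1 and lower for 4 of the 9 genes in D/KO cells at day 2 (14.5% of all genes called), and for 1 and 6 at day 4 (26.9%). In WT cells it was 1 and 1 at day 2 (5.52%), and 1 and 2 at day 4 (15.3%). At day 4 Bmp6 differed by 1.94 ± 0.16 in D/KO cells (adjusted p = 5.84e-12) and by 1.61 ± 0.15 in WT cells (adjusted p = 4.02e-10), and Chrdl1 by -3.43 ± 0.28 and -2.47 ± 0.24 (adjusted p = 7.46e-12 and 1.18e-09). These contrasts hold the day 0 difference that VC alone made, given above. Bmp1, Bmp2, Nog, Fst and Inhba also differed in D/KO cells at day 4, with -1.06, -2.79, -1.76, -0.76 and -1.21, and in WT cells Fst with -1.62. Bmp4 and Grem1 were not called in these 4 contrasts. The smaller difference of Fst in D/KO cells at day 2 (-0.64, adjusted p = 0.0269) was lost without any of 7 of the 12 libraries (0.0555 to 0.0849).

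D/KO and WT cells differed at day 0 and in how the genes moved afterwards. At day 0, 1 of the 9 genes was higher and 5 were lower in D/KO cells (43.2% of all genes called). Bmp4 was higher (log2 difference 1.78 ± 0.18, adjusted p = 5.07e-10), while the antagonist genes Chrdl1 (-2.06), Fst (-1.34), Nog (-1.03) and Grem1 (-0.97) were lower, with adjusted p from 4.69e-12 to 0.000109. In each of these the D/KO and WT libraries did not overlap. Bmp1, Bmp6 and Inhba were not called (-0.103, -0.16 and 0.08; adjusted p = 0.493, 0.242 and 0.713). Bmp2 was lower as well (-2.35, adjusted p = 0.00783), which gave 0.0612 without D/KO day 0 replicate 3 and 0.0808 without WT day 0 replicate 3. The D/KO change minus the WT change was higher for 3 and lower for 1 gene at day 2 (6.54% of all genes called), for 3 and 2 at day 4 (14.3%), and, with VC, for 2 and 5 at day 2 (13.9%) and 3 and 4 at day 4 (29.4%). Bmp2 and Bmp6 had a higher change in D/KO than in WT cells in all 4 contrasts, by 5.69 and 0.5 at day 4 (adjusted p = 1.41e-06 and 0.0131). Bmp6 rose in both genotypes, whereas in WT cells no rise of Bmp2 was called against day 0 of the same arm. Bmp4 and Bmp1 moved lower in D/KO than in WT cells at day 4 (-1.48 and -0.74; adjusted p = 3.65e-05 and 0.00145). Endothelial and leukocyte marker sums differed between the genotypes at day 0, as given above. Fibroblast sums were 80061 to 119027 CPM in D/KO and 52059.9 to 53832 CPM in WT cells. Muscle and nerve sheath sums were 24.2 to 37.01 and 4.14 to 5.72 CPM, also without overlap. Epithelial and chondrocyte and bone sums overlapped. The part of these markers in the differences was not tested.

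Each compound directed at ALK5 raised Chrdl1, Fst, Bmp4, Bmp6, Grem1, Nog and Bmp2 in D/KO cells and lowered Bmp1, whereas DMH-1 raised Bmp6 and Bmp2 and lowered Grem1, Fst, Inhba and Bmp1. With Repsox 7 of the 9 genes rose and 1 fell (20.7% of all genes called), with Vactosertib 7 and 1 (18.1%), with A83-01 7 and 1 (27.5%) and with DMH-1 2 and 4 (7.25%). The median change over the 9 genes was 1.59, 1.32, 1.51 and -0.42 on the log2 scale, against 0.02, 0.00, 0.00 and 0.00 over all genes. These 4 contrasts share the same 3 control libraries, and doses differ between the pairs. Replicate 2 of Repsox stood apart from the other two libraries of its group in pairwise distance, and without it the same 8 genes were called in the same direction.

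**Figure D2:**
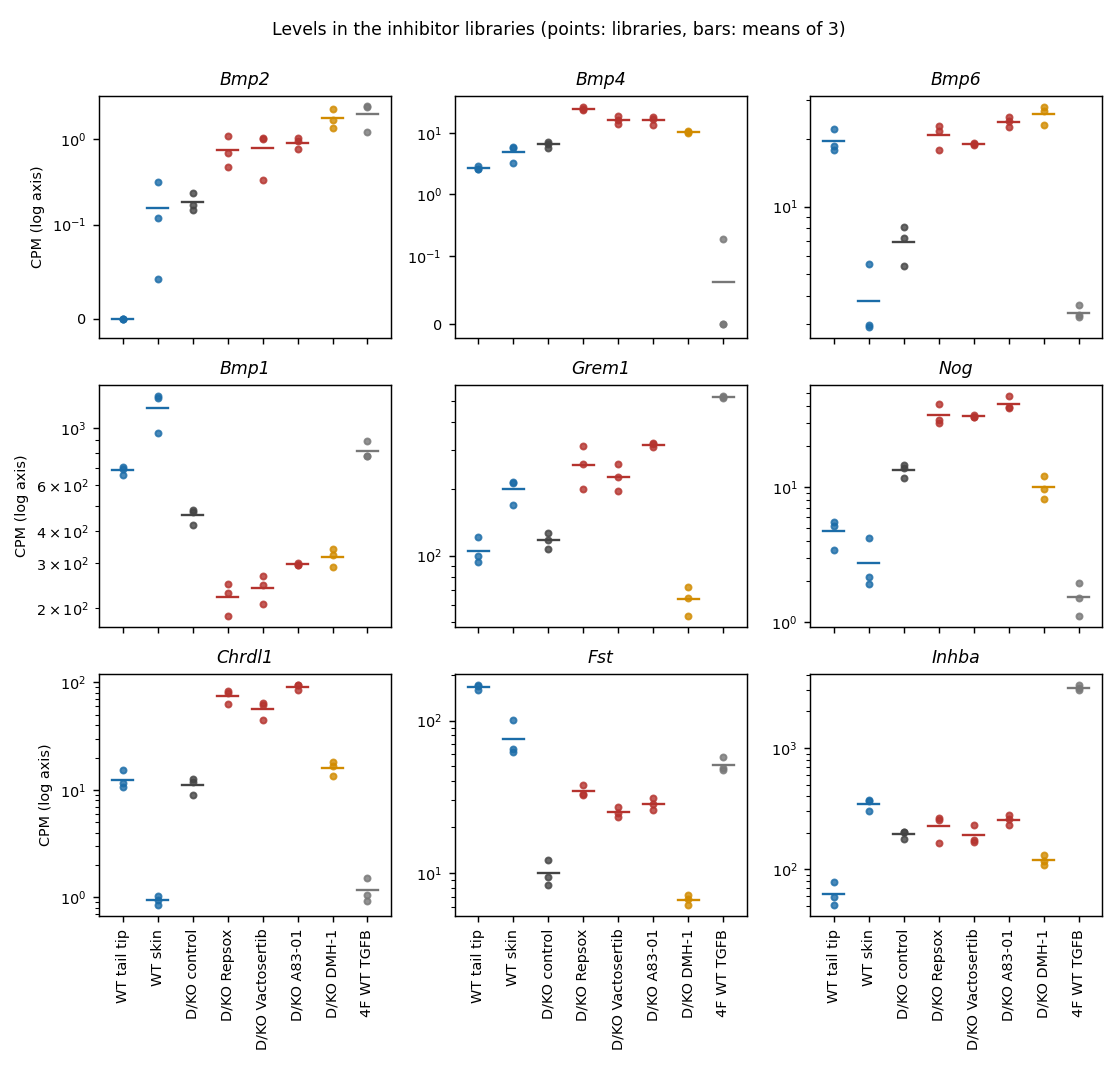
Level of each gene in the 24 libraries of the inhibitor table, in CPM after TMM scaling on a log axis. Points are libraries and bars are means of the 8 groups, and the Bmp2 and Bmp4 panels have a linear stretch below 0.1 CPM for libraries at 0. Chrdl1, Nog and Fst stand higher with Repsox, Vactosertib and A83-01 than in the D/KO control, and the libraries labelled TGFB stand apart for Inhba and Bmp4.

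Among the ligand genes Bmp4 held 5.75, 7.17 and 6.61 CPM in the control libraries and 26.4, 23.01 and 24.4 with Repsox, 18.5, 16.03 and 14.1 with Vactosertib, 16.9, 13.4 and 17.8 with A83-01 and 10.5, 9.83 and 10.4 with DMH-1. All treated libraries were above all control libraries. The log2 change was 1.92 ± 0.24 with Repsox (adjusted p = 4.13e-06), 1.32 with Vactosertib and 1.304 with A83-01 (adjusted p = 0.000394 and 0.000236), and with DMH-1 it missed the threshold at 0.65 (95% interval 0.16 to 1.15, adjusted p = 0.111). With DESeq2 in place of edgeR, and in a fit of 18 libraries only, the DMH-1 change of Bmp4 was called (adjusted p = 0.00851 and 0.00469). Bmp6 rose with every compound, from 5.41, 7.27 and 8.15 CPM to 21.7, 17.9 and 22.8 with Repsox, 18.9, 19.1 and 19.1 with Vactosertib, 22.7, 25.1 and 24.03 with A83-01 and 27.9, 26.6 and 23.1 with DMH-1, without overlap. Its log2 changes were 1.59, 1.46, 1.79 and 1.903 in the same order, with adjusted p of 9.55e-06 or less. Txndc5, whose exons overlap those of Bmp6, had a mean of 678 CPM in the control, 560.0 with Repsox, 583 with Vactosertib, 529.8 with A83-01 and 666 with DMH-1, in no case above the control.

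Bmp2 was near the limit of the counts, at 0.1703, 0.146 and 0.236 CPM (4, 3 and 4 counts) in the control libraries. Treated libraries held 0.686, 0.478 and 1.104 CPM with Repsox, 0.333, 1.02 and 1.04 with Vactosertib, 0.769, 0.954 and 1.03 with A83-01 and 2.29, 1.37 and 1.69 with DMH-1. All were above the control libraries, and those with DMH-1 were the highest. The log2 change with DMH-1 was 3.3 ± 0.55 (adjusted p = 0.000741) and with A83-01 2.34 ± 0.57 (adjusted p = 0.00424). With Repsox (log2 change 2.07, adjusted p = 0.0151) the p was 0.059 and 0.0653 without control replicates 1 and 2 and 0.0752 without Repsox replicate 3. With Vactosertib (2.14, adjusted p = 0.0145) it was 0.0578 and 0.0635 without control replicates 1 and 2, and 0.0619 and 0.0549 without Vactosertib replicates 2 and 3.

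The BMP antagonists split by compound. Chrdl1 held 8.94, 11.8 and 12.7 CPM in the control, 79.2, 62.6 and 83.5 with Repsox, 61.7, 64.3 and 44.7 with Vactosertib and 84.6, 93.99 and 94.5 with A83-01, against 16.7, 18.1 and 13.6 with DMH-1. It was 6.76-fold higher with Repsox, 5.12-fold with Vactosertib and 8.195-fold with A83-01 (adjusted p = 9.62e-10, 1.16e-08 and 1.53e-10). With DMH-1, whose libraries all exceeded the control too, the log2 change of 0.54 (95% interval 0.17 to 0.92) missed the threshold (adjusted p = 0.0756). Grem1 went from 107, 127 and 118 CPM to 259, 199.8 and 313 with Repsox, 195, 258 and 226 with Vactosertib and 308, 322 and 318 with A83-01, and down to 53.3, 72.3 and 64.5 with DMH-1. None of these groups overlapped the control, and the log2 change was 1.43 ± 0.15 with A83-01 (adjusted p = 3.87e-07) and -0.89 ± 0.15 with DMH-1 (adjusted p = 0.000754). Nog held 14.6, 11.7 and 13.9 CPM in the control, 29.6, 41.1 and 31.5 with Repsox, 32.9, 33.2 and 34.1 with Vactosertib, 39.05, 38.2 and 47.4 with A83-01 and 12.1, 8.17 and 9.66 with DMH-1. The first 3 compounds kept clear of the control (log2 changes 1.35, 1.32 and 1.64, adjusted p of 0.000296 or less), while DMH-1 overlapped it (-0.42, adjusted p = 0.346).

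On the activin side Fst rose with the ALK5 compounds while Inhba was not called. Fst held 12.1, 8.34 and 9.38 CPM in the control, 32.7, 37.7 and 32.7 with Repsox, 27.2, 23.3 and 24.9 with Vactosertib, 25.9, 28.3 and 31.01 with A83-01 and 7.15, 6.16 and 6.73 with DMH-1, all clear of the control on one side or the other. Its log2 changes were 1.79, 1.33 and 1.51 with the first 3 (adjusted p of 4.84e-06 or less) and -0.58 with DMH-1 (adjusted p = 0.0382). Inhba held 178, 204 and 205 CPM in the control, 265, 164 and 256 with Repsox, 176, 232 and 169 with Vactosertib, 231, 279 and 262 with A83-01 and 116, 132 and 108 with DMH-1. Repsox and Vactosertib overlapped the control (log2 0.23, 95% interval -0.14 to 0.59, and -0.02, -0.39 to 0.34), A83-01 libraries were all above it (0.397, 0.03 to 0.76, adjusted p = 0.102) and DMH-1 libraries all below (-0.72, adjusted p = 0.0141). A fit of only the groups compared called the A83-01 rise of Inhba (adjusted p = 0.00605). Bmp1 fell with every compound, from 419.9, 483 and 473 CPM to 249, 187 and 229 with Repsox, 208, 268 and 246 with Vactosertib, 296, 300.4 and 294 with A83-01 and 322, 290.5 and 339 with DMH-1, without overlap. Its log2 changes were -1.05, -0.93, -0.63 and -0.53 (adjusted p = 4.24e-06, 2.47e-05, 0.000868 and 0.014).

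Among the DMH-1 falls those of Fst, Bmp1 and Inhba depended on single libraries. Fst gave adjusted p = 0.249 and 0.07 without control replicates 1 and 3, and 0.0691, 0.153 and 0.0871 without DMH-1 replicates 1, 2 and 3. Bmp1 gave 0.0701 and 0.0581 without control replicates 2 and 3 and 0.0846 without DMH-1 replicate 2, and Inhba 0.0593 and 0.057 without control replicates 2 and 3 and 0.057 and 0.0681 without DMH-1 replicates 1 and 3. Marker sums moved with the compounds. The fibroblast sum was 79191 to 84468 CPM in the control, 40601 to 48201 with Repsox, 49086 to 52566 with Vactosertib, 42379.5 to 45066 with A83-01 and 68130.4 to 85759 with DMH-1. The endothelial sum was 341 to 382, 263 to 419, 309.8 to 391, 155 to 200.2 and 395 to 487 CPM in the same order of groups. Chondrocyte and bone markers, some of which were at 0 in each group, summed to 26.4 to 32.1, 5.85 to 10.3, 8.79 to 10.1, 6.08 to 8.55 and 14.3 to 16.1 CPM, so that every treated library lay below the control. Muscle and nerve sheath markers were at 37.4 to 44.9 CPM with A83-01 and 24.5 to 28.6 with Repsox against 17.1 to 20.9 CPM in the control, with Pax7 at 0 in all 3 groups. Epithelial sums were 10.5 to 11.97 CPM in the control, 15.96 to 28.3 with Repsox, 16.4 to 21.6 with Vactosertib and 16.3 to 25.6 with A83-01, with Cdh1 and Krt14 at 0 in each. Leukocyte sums were 10.1 to 14.3 CPM in the control, 15.97 to 29.02 with Repsox and 15.7 to 23.1 with A83-01, above the control in both. The part of these markers in the changes above was not tested.

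**Figure D3:**
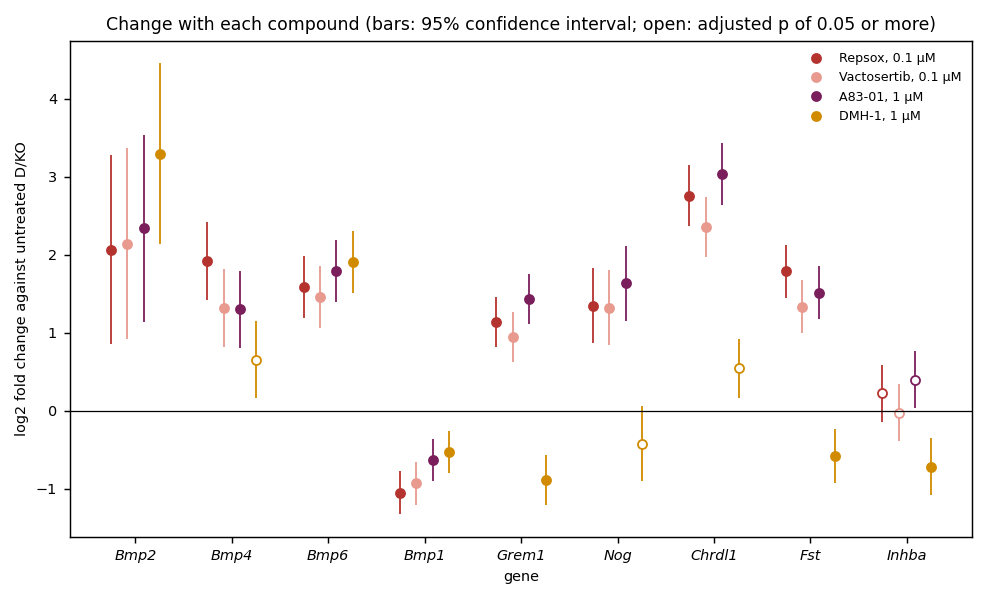
Change of each gene with each of the 4 compounds against the D/KO control, as log2 fold change on the vertical axis with 95% intervals from the edgeR fit. Open symbols have an adjusted p of 0.05 or more. Grem1, Nog, Chrdl1 and Fst lie above 0 with the 3 ALK5 compounds, and Grem1 and Fst lie below 0 with DMH-1.

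Only 2 pairs of compounds were given at the same dose, and both were compared directly. A83-01 and DMH-1, at 1 µM each, differed in 5 of the 9 genes, all higher with A83-01 (20.5% of all genes called). The log2 difference was 2.49 ± 0.18 for Chrdl1 (adjusted p = 2.92e-09), 2.32 ± 0.16 for Grem1 (1.25e-09), 2.09 ± 0.17 for Fst (9.3e-09), 2.06 ± 0.23 for Nog (1.31e-06) and 1.11 ± 0.18 for Inhba (7.81e-05), so all 4 antagonist genes were among them. The libraries of the pair did not overlap in any of these 5 genes. No difference was called for Bmp6 (95% interval -0.49 to 0.26), Bmp1 (-0.37 to 0.17), Bmp2 (-1.87 to -0.04) or Bmp4 (0.17 to 1.13, adjusted p = 0.0504). For Bmp4 the call was made by DESeq2 (0.00178), by the fit of 18 libraries (0.0014) and without A83-01 replicate 2 (0.0463). Repsox and Vactosertib, at 0.1 µM each, differed in none of the 9 genes, and in 0% of all genes tested by edgeR, with 347 genes at an unadjusted p under 0.05 and 6 called by DESeq2. The log2 differences of the 9 genes had intervals of 0.13 to 1.08 for Bmp4, 0.13 to 0.78 for Fst, 0.04 to 0.76 for Chrdl1, -0.13 to 0.502 for Grem1, -0.44 to 0.497 for Nog, -0.11 to 0.61 for Inhba, -0.25 to 0.51 for Bmp6, -0.39 to 0.15 for Bmp1 and -1.06 to 0.905 for Bmp2. Those of Bmp4, Fst and Chrdl1 lay above 0 without a call once p was adjusted over all genes.

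The untreated lines of the inhibitor table differed widely in the same genes. Against WT tail tip cells, D/KO control cells were higher in 4 and lower in 3 of the genes (34.6% of all genes called). WT tail tip libraries held 168, 159.5 and 171 CPM of Fst against the D/KO values given above (log2 difference -4.06 ± 0.18, adjusted p = 2.48e-13), 59.2, 78.7 and 50.8 CPM of Inhba (1.63, adjusted p = 3.03e-07) and 5.18, 3.41 and 5.48 CPM of Nog (1.51, adjusted p = 4.05e-05). They held 2.57, 2.597 and 2.84 CPM of Bmp4 (1.29, adjusted p = 0.000391) and 18.7, 22.3 and 17.9 CPM of Bmp6 (-1.505, adjusted p = 2.06e-06). Fst and Bmp6 were thus lower, and Inhba, Nog and Bmp4 higher, in the D/KO cells, with no overlap. Bmp2 was at 0 counts in all 3 WT tail tip libraries, which allows up to 3 counts in each, and had 4, 3 and 4 counts in the D/KO control. Grem1 and Chrdl1 were not called (0.16 and -0.16; adjusted p = 0.439 and 0.522), and Bmp1 was lower (-0.58, adjusted p = 0.00139). Marker sums differed as well, with 341 to 382 CPM of endothelial, 26.4 to 32.1 of chondrocyte and bone and 17.1 to 20.9 of muscle and nerve sheath markers in D/KO cells against 77.9 to 96.3, 80.4 to 92.97 and 4.53 to 6.37 CPM in WT tail tip cells, and their part was not tested. The genotypes differ in age too, which cannot be told apart from genotype or line.

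Skin and tail tip cells of the ERCC1_(+/+) genotype differed in all 9 genes, 5 higher and 4 lower in skin (34.2% of all genes called). Skin libraries held 301, 366 and 371 CPM of Inhba (log2 difference 2.46, adjusted p = 1.82e-09), 1.03, 0.8498 and 0.9497 CPM of Chrdl1 (-3.72, adjusted p = 9.06e-11) and 2.91, 5.52 and 2.97 CPM of Bmp6 (-2.36, adjusted p = 9.26e-09). Chrdl1 was at 11.6, 15.2 and 10.6 CPM in tail tip, so that skin was higher for Inhba and lower for Chrdl1 and Bmp6, without overlap. Fst was lower in skin (101, 64.96 and 61.9 CPM) and Bmp1 and Grem1 were higher (log2 0.81 and 0.93). Bmp4 was called higher too, as was Bmp2, which had 7, 1 and 2 counts in skin. Skin libraries also held 67.6 to 94.2 CPM of muscle and nerve sheath, 196 to 278 of endothelial and 44.1 to 100.4 of epithelial markers, each above the tail tip libraries, where the epithelial sum was 13.7 to 27.8 CPM, and the part of these markers was not tested. Replicate 1 of skin stood apart from the other two in pairwise distance, and without it 8 of the 9 genes, all but Bmp2, were still called in the same direction. Calls lost without 1 library were Nog (log2 -0.76; 0.0859 and 0.101 without tail tip replicates 1 and 3, 0.135 and 0.105 without skin replicates 2 and 3) and Bmp4 (0.87; 0.0616 without skin replicate 2).

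The libraries labelled TGFB were led by Inhba and almost lacked Bmp4. Inhba was at 3304, 3014 and 3133 CPM, or 493 ± 22.8 RPKM, above Grem1 (527, 517 and 522 CPM, 126 ± 1.197 RPKM) and Bmp1 (778, 783 and 891 CPM, 92.2 ± 7.21 RPKM). Bmp4 had 0, 4 and 0 counts, and Chrdl1 and Nog were at 1.05, 1.52 and 0.917 CPM and 1.93, 1.11 and 1.51 CPM. Bmp6 was at 3.204, 3.27 and 3.62 CPM, Bmp2 at 1.23, 2.44 and 2.38 CPM and Fst at 49.1, 47.5 and 57.6 CPM. With no untreated library of the line beside them these values are levels without a test, and the same genotype in the other table, scaled separately, held 267 to 316 CPM of Inhba at day 0.

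The ratio of summed antagonist RPKM (Grem1, Nog and Chrdl1) to summed BMP ligand RPKM (Bmp2, Bmp4 and Bmp6) fell during reprogramming in each arm, given here as a description without a test. In WT libraries it was 17.99, 20.4 and 18.9 at day 0, 6.87, 5.82 and 5.999 at day 2 and 5.98, 5.46 and 5.33 at day 4. With VC it went from 14.6, 15.2 and 16.6 at day 0 through 4.22, 3.98 and 3.83 at day 2 to 1.61, 1.89 and 1.74 at day 4. In both arms all induced libraries lay below day 0. D/KO libraries started lower, at 5.301, 5.36 and 4.97 at day 0, and held 2.703, 2.47 and 4.31 at day 2 and 2.44, 2.09 and 4.08 at day 4. With VC they held 8.15, 7.85 and 17.1 at day 0, 1.59, 1.59 and 2.41 at day 2 and 1.69, 1.48 and 2.24 at day 4, with the third library apart from the other two on each day. In WT cells the ligand sum grew from 6.299 ± 0.531 to 24.8 ± 0.391 RPKM by day 4 while the antagonist sum went from 120.0 ± 3.77 to 139 ± 7.62. With VC the WT antagonist sum also dropped, from 96.3 ± 2.92 to 60.6 ± 5.06 RPKM. In D/KO cells the ligand sum went from 11.2 ± 1.69 to 32.9 ± 0.228 RPKM by day 4, and the antagonist sum from 58.1 ± 6.2 to 94.4 ± 34.9. With VC the D/KO ligand sum went from 8.25 ± 2.28 to 37.8 ± 1.31 RPKM and the antagonist sum from 83.02 ± 11.4 to 67.97 ± 12.6.

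**Figure D4:**
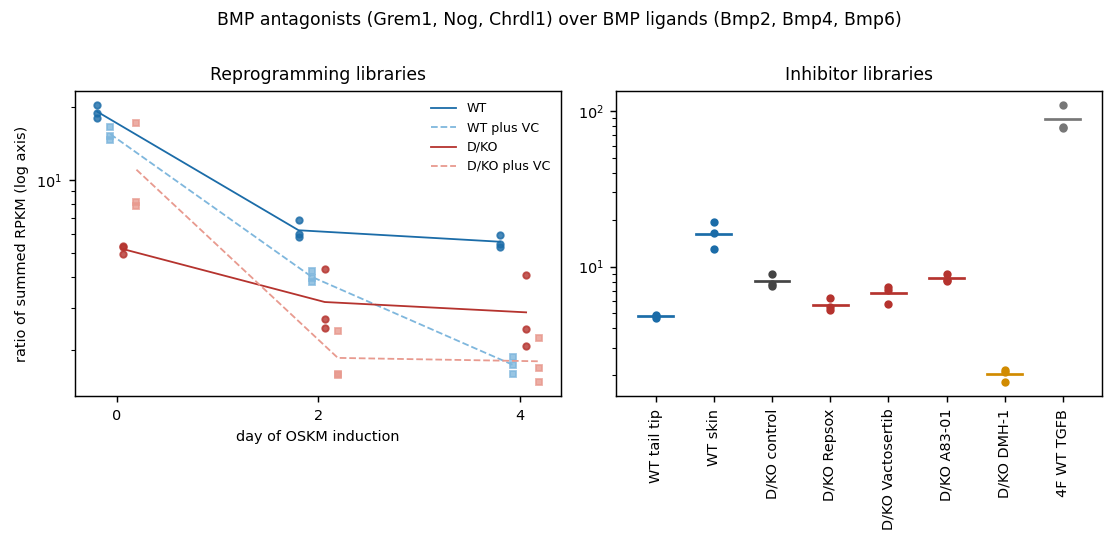
Ratio of the summed RPKM of Grem1, Nog and Chrdl1 to that of Bmp2, Bmp4 and Bmp6 in each library, on a log axis, for the reprogramming groups and for the inhibitor table. Points are libraries. WT libraries lie at 18 to 20.4 at day 0 and at 5.33 to 5.98 at day 4, and DMH-1 libraries lie at 1.8 to 2.15, below the D/KO control at 7.55 to 8.92.

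The same ratio set DMH-1 apart from the ALK5 compounds. It was 8.06 ± 0.754 in the control, 5.65 ± 0.5403 with Repsox, 6.74 ± 0.889 with Vactosertib, 8.45 ± 0.479 with A83-01 and 2.02 ± 0.191 with DMH-1. With A83-01 ligands and antagonists rose together, and with DMH-1 the ligand sum rose while the antagonist sum went from 37.8 ± 1.89 to 23.5 ± 1.27 RPKM. The ratio of Inhba to Fst RPKM fell with the ALK5 compounds from 14.6 ± 3.61 in the control to 4.85 ± 1.5 with Repsox, 5.56 ± 1.39 with Vactosertib and 6.51 ± 0.512 with A83-01, and was 12.9 ± 2.17 with DMH-1. In reprogramming it went from 11.3 ± 3.45 at day 0 to 5.77 ± 1.53 at day 4 in D/KO cells and from 4.08 ± 0.266 to 2.11 ± 0.157 in WT cells, without overlap in either. With VC it went from 5.61 ± 0.567 to 2.14 ± 0.0993 over the same days in D/KO cells, again without overlap. WT cells with VC were at 4.103 ± 0.667 at day 0 and 4.64 ± 0.345 at day 4, which overlapped.

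Genes that BMP signals are known to switch on were counted from a list of 12 (Id1 to Id4, Smad6, Smad7, Smad9, Bambi, Msx1, Msx2, Hey1 and Atoh8). With Repsox, Vactosertib and A83-01 9 of the 12 rose and none fell, with medians of 1.40, 1.22 and 1.63 on the log2 scale, where 20.7%, 18.1% and 27.5% of all genes were called. With DMH-1 1 rose and 2 fell (median -0.17; 7.25% of all genes), and A83-01 against DMH-1 gave 10 higher and none lower (median 1.87; 20.5%). The inhibitor of differentiation gene Id4 changed by 2.9 with Repsox and 2.97 with A83-01 (adjusted p = 1.28e-11 and 5.44e-12), and Atoh8, a bHLH factor gene, by 2.77 with A83-01 and -0.64 with DMH-1 (adjusted p = 2.35e-13 and 0.000498). By day 4 of reprogramming 6 rose and 1 fell in D/KO cells (median 0.53; 37% of all genes called) and none rose and 3 fell in WT cells (-0.05; 24.5%), a share near that of all genes. With VC the counts were 5 and 4 for D/KO cells (0.23; 54.1%) against 2 and 3 for WT cells (-0.29; 44.7%). Id1 rose by 2.47 in D/KO cells (adjusted p = 1.42e-08), from a mean of 29.2 to 162 CPM, and was at 49.2 and 42.9 CPM in WT cells at day 0 and day 4. Whether these counts follow from the ligand and antagonist transcripts was not tested.

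The receptor list held 12 tested genes. In D/KO cells at day 4 1 rose and 5 fell (median -0.12; 37% of all genes called), with Bmpr1b, a BMP type I receptor gene, at -4.01 (adjusted p = 1.92e-05), and with VC 2 rose and 7 fell (-0.38; 54.1%). In WT cells 1 rose and none fell (0.12; 24.5%), and with VC 1 rose and 4 fell (-0.18; 44.7%). Repsox and Vactosertib each gave 3 rises and 2 falls (-0.08 and -0.09; 20.7% and 18.1% of all genes), A83-01 3 and 4 (-0.13; 27.5%) and DMH-1 2 and none (0.08; 7.25%). Bmpr1b fell with Repsox and with A83-01 (-2.01 and -2.21; adjusted p = 0.000316 and 8.82e-05), while Acvr2b, an activin type II receptor gene, rose (1.25 and 1.74). DMH-1 raised the co-receptor genes Rgmb and Rgma (1.27 and 1.08; adjusted p = 4.29e-08 and 0.0174).

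Of the other ligand genes, 14 were tested in the reprogramming and 12 in the inhibitor table. By day 4, 5 rose and 1 fell in D/KO cells (median 0.22; 37% of all genes called) and 3 rose and 3 fell in WT cells (-0.17; 24.5%). Bmp8a, a ligand gene of the germ line, rose in both (3.43 and 3.96; adjusted p = 4.04e-10 and 1.29e-07). With VC 6 rose and 7 fell in D/KO cells (54.1% of all genes), and Gdf6, a joint-patterning ligand gene, changed by -5.41 in D/KO cells and by -3.56 in WT cells, where 4 rose and 5 fell (44.7%). DMH-1 raised 4 and lowered none (median 0.54; 7.25%), among them Bmp3 (2.48), Gdf6 (2.04) and Gdf7 (1.93), while each ALK5 compound raised 2 and lowered none (20.7%, 18.1% and 27.5% for Repsox, Vactosertib and A83-01). Among the other secreted antagonists 2 rose and 5 fell in D/KO cells at day 4 (median -0.16 of 14; 37%), and 1 rose and 10 fell with VC (-0.72; 54.1%). In WT cells it was 1 and 4 (-0.14; 24.5%), and 1 and 8 with VC (-0.40; 44.7%). Sostdc1, a BMP antagonist gene of teeth and hair, rose in D/KO and WT cells by day 4 (6.15 and 8.26; adjusted p = 2.8e-12 and 4.4e-12). Repsox and Vactosertib raised 4 and lowered 3 of 15 (20.7% and 18.1% of all genes), A83-01 3 and 3 (27.5%) and DMH-1 1 and 1 (7.25%). Bmper fell with Repsox and with A83-01 (-1.099 and -1.44). Of the 4 proprotein convertase genes, whose products release mature ligands, 1 rose and 1 fell with Repsox (median -0.51; 20.7% of all genes), 1 and 1 with Vactosertib (-0.50; 18.1%), 1 and 2 with A83-01 (-0.56; 27.5%) and 1 and none with DMH-1 (-0.19; 7.25%). Pcsk5 fell with Repsox and A83-01 (-3.58 and -3.73; adjusted p = 1.32e-09 and 4.61e-10) and Pcsk6 rose (1.19 and 1.85; adjusted p = 1.81e-05 and 3.78e-08).

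Across the 20 group means of log2 CPM, centred within each table, the 14941 genes tested in both tables were ranked by Pearson's r with each gene, as a description in which points share libraries and scaling. Inhba was most like Noct (r = 0.964), Tbc1d1 (0.952) and Snx30 (0.945), and Bmp6 most like Eef2k (0.944), Epb41l4b (0.941) and Tmem184a (0.939). For Nog the nearest were Rcan2 (0.940), Cpne2 (0.927) and Plekhg6 (0.925), and for Chrdl1 Serpind1 (0.935), Man2b2 (0.929) and Gdpd2 (0.928). Bmp4 lay nearest to Prelp (0.925), Kctd12b (0.924) and Prkd2 (0.923), and Bmp1 to Phldb2 (0.900), Rrbp1 (0.890) and Sulf1 (0.888). Fst, Bmp2 and Grem1 had less close neighbours, with Hspa1b (0.851), Tuft1 (0.847) and Nefm (0.783) the nearest. Among the genes themselves Bmp6 and Inhba ran opposite over the 12 reprogramming groups (r = -0.90) and over the 8 inhibitor groups (r = -0.71). Nog and Chrdl1 ran together over the 8 groups of the inhibitor table (r = 0.95) but not over the 12 reprogramming groups (r = 0.0018).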

How the data were processed

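PolyA RNA from mouse fibroblasts was sequenced in 60 libraries, as paired ends on a NovaSeq 6000. The authors trimmed reads with TrimGalore after FastQC, aligned them to GRCm39 with Hisat2 and deposited featureCounts raw counts per gene, in 2 tables that also give gene lengths. Tool versions, annotation release, strand setting and treatment of multiply mapped reads are not given in the sources used here. Compound names, doses and times come from the labels and the study's methods.

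Identifiers were matched to symbols in GENCODE M39 (56236 of 56980, or 98.7%, found). Each table was fitted once in edgeR 4.0.16 (R 4.3.3) with 1 coefficient per group, TMM scaling, filterByExpr (minimum count 10, minimum total 15) and the quasi-likelihood F-test, two-sided, with Benjamini-Hochberg adjustment over all genes of a contrast and a threshold of 0.05. Tested were 15832 genes of the reprogramming and 15652 of the inhibitor libraries, with all 9 described here among them in both. TMM factors were 0.773 to 1.10 and 0.846 to 1.12, and the common coefficient of biological variation 0.132 and 0.195. RPKM values used the deposited lengths. No 2 libraries of a group agreed within counting noise (mean chi-square per gene at least 3.27). Columns that matched no sample numbered 0.

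The 9 genes and the pathway and marker lists were chosen with earlier results of these data known. The 9 are named by rule in the comparisons (those not called in part by count alone), from another list at most the 3 largest rises and falls past the threshold, and for likeness the 3 genes of highest r (log2 CPM, prior count 2). Alternatives were DESeq2 1.42.0 (the tool of the study's methods), DESeq2 size factors, other filters, fits of fewer groups, day 0 without VC as baseline, a fold limit and each library left out. In counts simulated on these libraries, changed genes were drawn from those with a mean above 1 CPM, and all others were left unchanged. For D/KO day 4 against day 0 the fit recovered 88% of 100 genes changed by 1 on the log2 scale. It recovered 98% of 100 changed by 2, with 5 false calls among 15200 genes. For Repsox against control it recovered 70% and 98%, with 7 false calls among 15133. Recovery of genes with a lower mean was not simulated.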

Additional observations from a re-analysis of the deposited data

Results flagged for a closer look

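The change in D/KO cells minus the change in WT cells was past the threshold of edgeR's test for the following genes. At day 2 it was 3.596 for Bmp2 (adjusted p = 0.00311), 0.90 for Bmp6 (3.77e-05), 0.99 for Grem1 (0.0185) and -0.63 for Fst (0.0493) on the log2 scale. Of these, Grem1 lost the call without D/KO day 0 replicate 1 (0.0656) or D/KO day 2 replicate 3 (0.0901), and Fst without any of 8 of the 12 libraries (0.0682 to 0.199). At day 4 it was 5.69 for Bmp2 (1.41e-06), -1.48 for Bmp4 (3.65e-05), 1.26 for Nog (0.00185), -0.74 for Bmp1 (0.00145) and 0.50 for Bmp6 (0.0131). Bmp2 rests on few reads at day 0 in D/KO cells.

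At day 2 plus VC the difference was 2.73 for Bmp2 (adjusted p = 0.000407), 1.40 for Bmp6 (7.73e-08), -1.11 for Fst (7.65e-05), -1.10 for Bmp4 (0.00175), -0.90 for Nog (0.0378), -0.85 for Chrdl1 (0.00978) and -0.74 for Bmp1 (0.00155). The call of Nog was lost without any of 7 of the 12 libraries (0.0537 to 0.106). At day 4 plus VC it was 3.88 for Bmp2 (2.37e-07), -1.67 for Chrdl1 (4.43e-06), -1.47 for Bmp1 (1.53e-08), -1.10 for Bmp4 (0.000682), -0.94 for Inhba (0.00118), 0.83 for Bmp6 (0.000139) and 0.62 for Fst (0.0131). Genotype cannot be told apart from sex, age, reporter or line in these differences.

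The libraries labelled TGFB enter no comparison and showed levels above the untreated groups of their table for 3 genes, with means of 3150.4 CPM for Inhba, 522 CPM for Grem1 and 2.02 CPM for Bmp2.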

How the results depend on the processing

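No paired analysis was possible because the labels number the libraries of a table in 1 running series, so no groups share replicate numbers. Under DESeq2, DESeq2 size factors in edgeR, the stricter filter on counts and the fit of 18 libraries, every call on a gene kept its direction and none lost the threshold (307 of 313, 312 of 313, 271 of 272 and 60 of 62 results on the same side, the rest newly past it). Without the filter 6 of 313 lost it and 17 gained it, and with only the groups compared 8 of 311 lost it and 18 gained it. Leaving out 1 library at a time kept the direction of every call, with 113 of 2310 below and 20 newly past the threshold, and moved counts of called genes to 1 to 3 for WT day 4 against day 2 (3; 1 without WT day 2 replicate 2 or WT day 4 replicate 1 or 2), 2 to 4 for the genotype difference at day 2 (4; 2 without D/KO day 0 replicate 1) and 3 to 5 for DMH-1 (6; 3 without control replicate 3). The cause of these shifts was not tested.

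With only the groups compared, 7 genes were called in WT day 4 against day 0, 5 in WT day 4 against day 2, and 4 and 5 in the WT difference between VC arms at day 2 and day 4, where no filter gave 5 and 5. A log2 change of at least 1 on top of the threshold left 3 and 4 genes in D/KO day 2 and day 4, 2 in WT day 2 and 4 in WT day 2 plus VC. From day 2 to day 4 it left 1 and, with VC, 2 for D/KO cells, against 1 and 3 for WT cells. For VC against none it left 2 at day 2 and 3 at day 4 in D/KO cells, and 4 at day 0 and 0 at day 2 in WT cells. It left 1 and 3 in the genotype differences at days 2 and 4, both 4 with VC, 3 in the D/KO difference between VC arms at day 2, 2 with DMH-1 and 5 in skin against tail tip.

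With day 0 without VC as the baseline of the VC arms, which by construction adds the effect of VC alone, 4 genes were called in WT cells at day 2 and 8 at day 4. In D/KO cells this turned Chrdl1 (log2 0.51) and Fst (0.54) at day 2 and Fst (1.24) at day 4 into rises. In WT cells it turned Bmp2 (0.45), Grem1 (-0.035) and Nog (-0.099) at day 2 and Bmp2 (1.37) and Nog (-1.13) at day 4. Folds of Bmp2 are limited by its counts, which were at 0 to 4 in D/KO cells at day 0 and in the untreated inhibitor groups other than skin.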

Other observations

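In all 6 D/KO groups of the reprogramming table the third library had the highest Grem1 level, between 232 and 443 CPM, against 162 to 314 CPM in the other libraries, and Nog at day 4 was highest in the third library too (56.7 against 30.3 and 31.5 CPM). The numbers of these libraries are not said to mark a shared culture or day.

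WT tail tip cells of the inhibitor table had an Inhba to Fst ratio of 0.274 ± 0.0726 RPKM, against 14.6 ± 3.61 in the untreated D/KO cells and 3.50 ± 1.18 in WT skin cells. Libraries labelled TGFB stood at 44.3 ± 4.77. Their ratio of BMP antagonists to ligands was 109.9, 78.05 and 79.4, against 4.79 ± 0.0930 in WT tail tip cells, which were of another line.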
